A study of Strongylocentrotus purpuratus with 8 samples.

Results

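The long methylated blocks of the purple sea urchin genome (Strongylocentrotus purpuratus) were described from whole-genome bisulfite sequencing of adult tube feet and of embryos 24, 48 or 72 h after fertilisation (hours post fertilisation, hpf), with 2 libraries in each of the 4 groups. Whole embryos and whole tube feet were profiled without treatment. Which genotypes, parents and how many animals lie behind a library is not stated in the labels. Tube feet are the adult's locomotory and adhesive appendages. The genome was divided into windows of 500 bp, and a block is an unbroken run of 10 or more adjacent windows. Each window needed at least 20 reads pooled over the 6 embryo libraries and a methylation level of 70% or more in those reads. The level is the share of calls at CpG sites that were methylated, and each call is one read at one site. This gave 6513 blocks among 127249 runs of 1 or more such windows. The blocks therefore were 5.12% of the runs, but they held 24.2% of the 397825 windows at 70% or more. They covered 48.2 Mb and 7.61% of all windows with at least 20 reads. Because the embryo reads chose the blocks, the high level of the embryo libraries in them is a description and was not tested. The labelled tissues have no defining markers in DNA methylation data, so the labels could not be checked in that way.

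Invertebrate genomes usually carry CpG methylation in a mosaic, in which long methylated stretches alternate with unmethylated ones. In sea urchins and other invertebrates the methylated stretches are known to lie largely over the bodies of transcribed genes. The mark is copied after DNA replication by the maintenance methyltransferase DNMT1 and can be oxidised by TET enzymes. Genes were not assigned to the blocks here.

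The number of calls at CpG sites ranged from 75377025 to 126381599 per library, and between 0.112% and 0.296% of calls on the unmethylated lambda phage spike-in were methylated, which bounds incomplete conversion and sequencing error together. Of all calls, 7.80% and 12.3% fell in blocks in 24 hpf replicates 1 and 2, 7.94% and 9.24% in the 48 hpf pair, 7.88% and 8.34% in the 72 hpf pair and 7.64% and 7.56% in the adult pair. 24 hpf replicate 2 stood apart, with 2.83 times as many calls per CpG site in blocks as in windows at 20% or less, against 1.29 to 1.67 in the 7 other libraries. Its level over all calls was 42.2%, against 24.2% to 29.8% in the other embryo libraries. It listed 8652151 CpG sites, against 11623453 to 12366521 in the other embryo libraries. Without this library in the choice, 6248 blocks were found. The median block had between 825 and 1185 calls in each library. In all, 6488 blocks had at least 20 calls in every library, and 24 of the other 25 lacked them in adult tube feet.

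The blocks were mostly 5 to 8 kb long. The median length was 6500 bp, with quartiles at 5500 and 8000 bp. A length of 10 kb or more was reached by 934 blocks, 20 kb or more by 82 and 40 kb or more by 2. At the threshold of length, 1295 blocks had exactly 10 windows and 1774 runs had 9 and so were not counted as blocks. The pooled embryo level had a median of 87.5% in both kinds of run, and the median adult level was 77.8% with 10 windows and 77.3% with 9. Blocks lay on 1726 of 28819 scaffolds with a listed site. Scaffold356 carried the most, 36 blocks over 349 kb, which were 56.1% of its covered windows, against 27.4% on Scaffold127 with 35 blocks and 17.0% on Scaffold10 with 34.

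**Figure D1:**
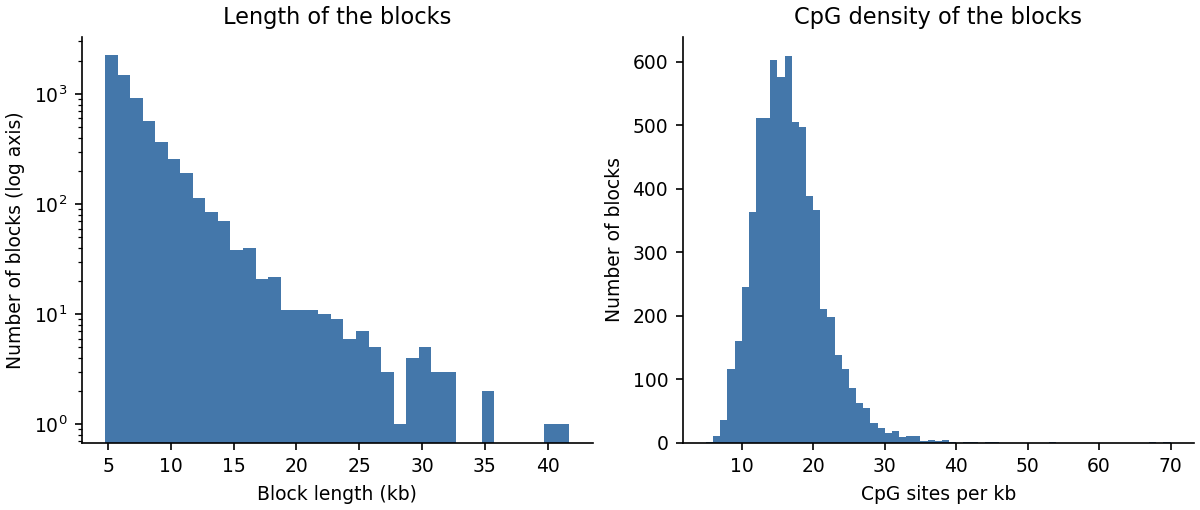
Left, the number of blocks (log axis) by length in kb, in bins of 1 kb. Right, the number of blocks by CpG sites per kb. Lengths fall off from 5 kb to 41.0 kb (41000 bp), and the median density is 16.2 sites per kb.

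CpG sites were sparser in the blocks than in unmethylated DNA. A block held a median of 107 CpG sites (range 28 to 826), and the median density was 16.2 sites per kb, with quartiles at 13.3 and 19.3. Block windows held 16.8 sites per kb on average and windows of shorter methylated runs 16.5. The 716049 windows at 20% or less held 25.6. A window of 15 or more sites was found in 12.2% of block windows and in 32.5% of unmethylated windows, and a window of 3 or fewer sites in 15.4% and 3.26%. These are counts over the genome, without a test. The counts per window overlapped widely, with a median of 7 sites ± 5.49 (SD) in block windows and 12 ± 6.73 in unmethylated ones.

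Few blocks ended at a window that was seen to be unmethylated. Of the 13026 block ends, 44.4% lay beside a window with no listed site or with fewer than 20 reads, and 37.1% beside a window at 50% to 70%. Only 6.96% lay beside a window below 20%, and only 24 blocks had such a window at both ends. The window beyond 477 ends stood at 69% to 70%, just outside the threshold. In the next window outward, 10063 ends had at least 20 reads, and 70.4% of these windows were again at 70% or more. In the adult, the window just beyond an end at 0 to 20% in embryos had a median level of 1.14%, and that beyond an end at 60% to 69% had 59.1%.

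**Figure D2:**
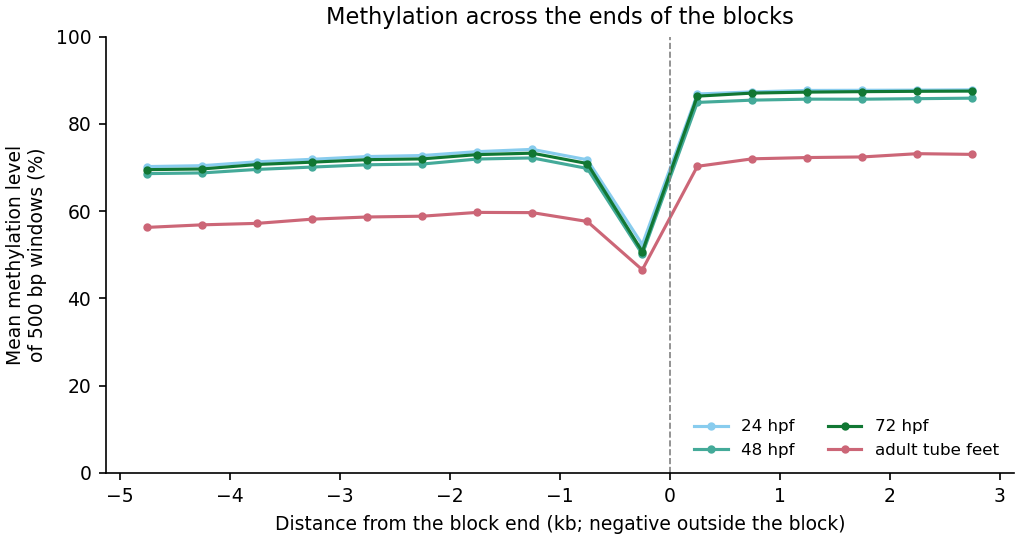
Mean methylation level (%) of 500 bp windows against the distance in kb from the end of a block, for the 2 pooled libraries of each group. Inside are blocks of 12 or more windows, and only windows with at least 20 embryo and 20 adult reads are used. At 72 hpf the mean is 86.4% in the last window of a block, 50.7% in the first window outside and 70.9% in the next one, against 70.3%, 46.6% and 57.6% in adult tube feet. By the rule, windows inside are at 70% or more in pooled embryo reads and the first window outside is below 70%. The step of the embryo groups at the block end was therefore set by the choice of blocks.

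Within embryos the blocks were uniformly high and close to each other. The median level of a block was 88.6% and 89.8% in the 24 hpf replicates, 86.3% and 87.5% in the 48 hpf pair and 88.8% and 87.99% in the 72 hpf pair. The pooled embryo level had an SD of 2.60 points across blocks, a spread that the choice of blocks limits. Between 72 and 24 hpf the levels were compared in blocks chosen by the same rule in the 48 hpf reads alone, so that neither group had chosen them. There were 4088 such blocks, of which 3885 (95.03%) touched one of the 6513, while 3800 (58.3%) of the 6513 touched one of them. Of the 4088, 4075 had at least 20 calls in each of the 6 libraries of the other groups. They differed by a median of -0.621 points between 72 and 24 hpf, and 5% to 95% of them lay between -3.73 and 2.24 points. A block was called where a quasi-binomial test, with the dispersion moderated by limma, gave an adjusted p below 0.05 and the groups differed by 20 points or more. By this test 0 blocks were called in either direction. As 0% of these blocks differed by 20 points or more, the minimum difference alone was enough to give this 0. With no minimum difference, 0 blocks were lower and 0 higher at an adjusted p below 0.05 in the quasi-binomial test. The shares of all runs were 0.0773% and 0.00149%. An unadjusted p below 0.05 was found in 203 blocks (4.98%), against 6.55% of all runs. Among all 67263 runs tested, 0.0580% were called lower and 0.00149% higher at 72 hpf. limma on log2 ratios also called 0 blocks. The libraries of both groups did not overlap in 955 blocks that were lower and 437 that were higher at 72 hpf, 23.4% and 10.7% of blocks, against 21.0% and 13.4% of all runs.

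**Figure D3:**
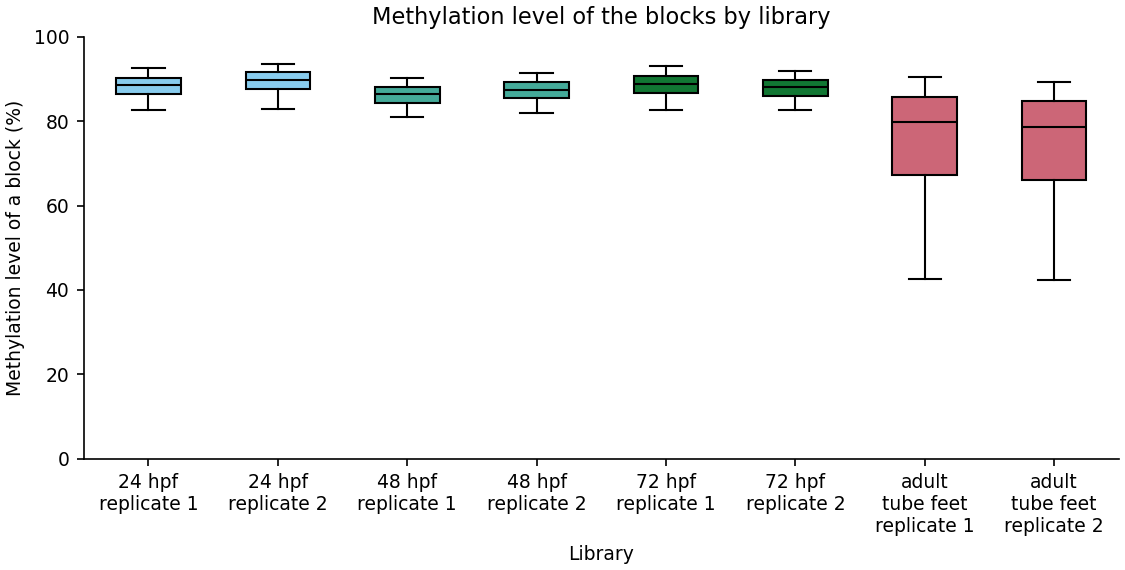
Methylation level (%) of the blocks in each of the 8 libraries, for blocks with at least 20 calls in that library. Boxes give the quartiles with the median, and whiskers the 5th and 95th percentiles. The 6 embryo libraries have medians of 86.3% to 89.8%, and the adult libraries have medians of 79.7% and 78.7% with a far wider spread. The choice of blocks on embryo reads limits the spread in the embryo libraries.

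In adult tube feet many blocks were partly methylated, and their level varied widely. The median level of a block was 79.7% in replicate 1 and 78.7% in replicate 2. The 5th percentile was 42.5% and 42.3%, against 80.9% to 82.9% in the embryo libraries. A level below 70% was found in 29.9% ± 0.938 (SD, n = 2) of blocks in the adult libraries and in at most 2 blocks of each embryo library. Of the 6489 blocks with an adult level, 3083 stood at 80% or more, 1465 at 70% to 80%, 1337 at 50% to 70%, 520 at 30% to 50% and 84 below 30%. The SD across blocks was 14.97 points. The embryo level was nearly the same in each of these classes. Its median at 72 hpf was 86.3% in the blocks below 30% in the adult and 89.2% in those at 80% or more. The choice of blocks on embryo reads, those at 72 hpf included, limits how far the embryo levels can spread. This also holds for their 5th percentiles and shares below 70%. In a whole tissue, loss of methylation in some cells and partial methylation in all cells cannot be told apart.

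The adult replicates placed the blocks in nearly the same order. Across 6488 blocks their levels correlated at 0.970 (Pearson's r, over blocks, which are not replicates). They lay within 5 points of each other in 86.5% of blocks. For pairs of embryo libraries r was 0.690 to 0.734 without 24 hpf replicate 2 and 0.493 to 0.582 with it. For an embryo library against an adult one r was 0.109 to 0.302. The narrow range of the embryo levels, which the choice of blocks sets, limits the last 2 sets of correlations, and the 2 adult libraries may share animals or handling.

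Adult tube feet and 72 hpf embryos were then compared to ask how far the embryonic blocks were kept in a differentiated tissue. In the 4075 blocks chosen in 48 hpf reads, the median level was 89.2% and 88.4% in the 72 hpf replicates and 81.2% and 79.9% in the adult replicates. The quasi-binomial test called 970 blocks (23.8%) lower and 0 higher in the adult, with 8 higher at an unadjusted p below 0.05, against 1.65% of all runs. A rise of 20 points needs a 72 hpf level of 80% or less. In the blocks chosen in all embryo reads, 98.5% and 98.7% stood at 80% or more in the 72 hpf replicates. A call of higher was therefore out of reach for most blocks, and the 0 was largely set by the choice of highly methylated blocks. Among all 67263 runs tested, 31.3% were called lower and 0.222% higher. limma on log2 ratios called 967 lower, all of them among the 970, and 0 higher. The called blocks had a median of 88.02% at 72 hpf and 56.0% in the adult, and a median difference of -31.7 points. The other blocks had a median difference of -5.23 points. With no minimum difference, 2725 blocks (66.9%) were lower and 5 (0.123%) higher at an adjusted p below 0.05 in the quasi-binomial test, against 51.0% and 1.17% of all runs. The share called lower was thus below that of all runs with the minimum of 20 points and above it without one. Tested blocks had a median of 1042 calls per library and shorter runs 151, and the part of depth in these shares was not tested. The 72 hpf and adult libraries did not overlap in 3465 blocks that were lower (85.0%) and 70 that were higher (1.72%) in the adult, against 70.8% and 5.97% of all runs.

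In the 6489 blocks chosen in all embryo reads the difference is given without a test, since 72 hpf reads took part in the choice. The adult minus 72 hpf difference had a median of -8.60 points, with quartiles at -21.1 and -3.52. It was at least 20 points below 0 in 1718 blocks (26.5%), against 32.3% of all runs, and at least 40 points below 0 in 466 (7.18%), against 12.5%. It lay within 5 points in 2186 blocks (33.7%). It reached 10 points in 1 block, against 1.39% of runs. In 4729 of 6488 blocks (72.9%) both adult levels were lower than each of the 6 embryo levels, and in 53 (0.817%) both were higher, against 59.4% and 2.26% of runs.

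The share of runs called lower was smaller in the classes of longer runs. It was 32.9% of runs of 1 window, 32.1% of those of 2 to 4 windows and 29.9% of those of 5 to 9. Among blocks it was 26.0% with 10 to 14 windows, 20.1% with 15 to 19, 18.4% with 20 to 29 and 10.1% with 30 or more, where 11 of 109 blocks were called. The median difference moved from -10.4 points in runs of 1 window to -6.56 points in blocks of 30 windows or more. Calls per library rose along the same order, from a median of 80.5 to 3905. The difference between length classes was not tested. In the blocks chosen in all embryo reads, the median CpG density was 16.0 sites per kb at 10 to 14 windows and 18.5 at 30 or more, and density moved with length.

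The share called lower was also larger in the classes of CpG-poor blocks, a difference that was not tested. In the quartile class of blocks with the fewest CpG sites (5.80 to 14.1 per kb), 389 of 1019 were called lower (38.2%). The share was 24.5% and 18.7% in the middle classes and 13.9% (141 of 1018) in the class with the most sites (20.4 to 69.6 per kb). In the blocks chosen in all embryo reads, the median adult level rose over the 4 quartile classes from 73.8% through 77.6% and 80.3% to 83.0%. The median at 72 hpf moved only from 87.5% to 89.4%. Both adult replicates showed the same order, from 74.2% and 72.8% in the poorest class to 83.7% and 82.3% in the richest. The median number of adult calls per site was 17.1, 15.7, 16.0 and 16.6 over the 4 classes, from the poorest to the richest. At a like depth per site, a stretch with fewer sites has fewer calls. The part of depth in the order of the classes was not tested. The Spearman correlation of density with the adult minus 72 hpf difference across blocks was 0.229, as a description without a p.

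**Figure D4:**
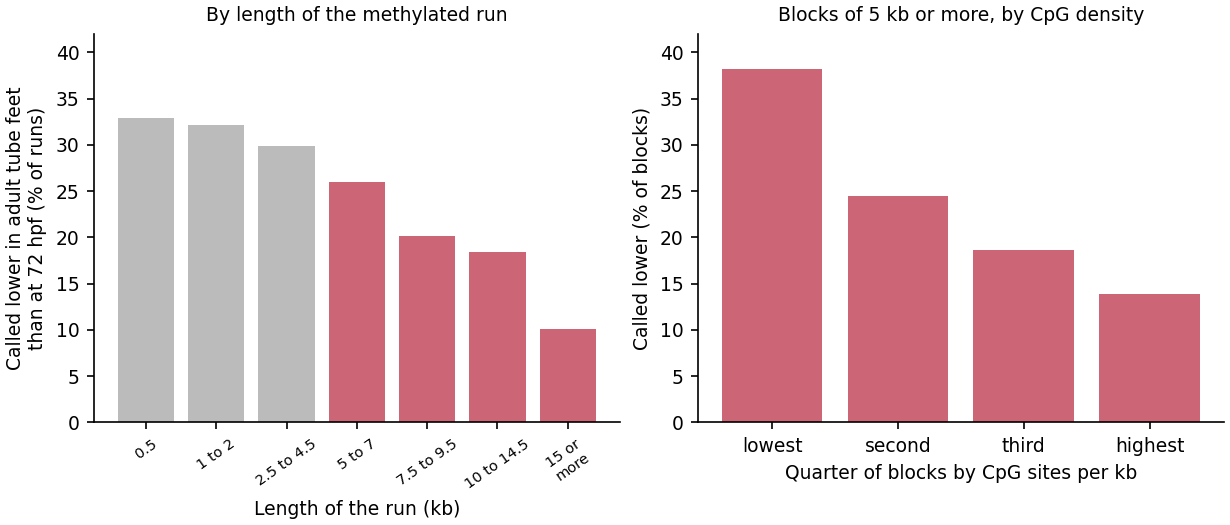
Share (%) of methylated runs, chosen in 48 hpf reads, that were called lower in adult tube feet than at 72 hpf. Left, by length of the run in kb, with runs shorter than 5 kb in grey and blocks in red; right, blocks by quartile class of CpG density. The share is 32.9% in runs of 0.5 kb and 10.1% in blocks of 15 kb or more, and it falls from 38.2% to 13.9% over the classes of density.

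Inside a block, the adult level varied from window to window. In the blocks chosen in 48 hpf reads, every assessed window stood at 70% or more in 76.4% of blocks in 24 hpf reads, in 72.8% in 72 hpf reads and in 16.7% (671 of 4023) in adult reads. These shares use windows with at least 20 reads in the 2 pooled libraries of a group. Single windows were at 70% or more in 97.8%, 97.6% and 69.3% of cases. In the blocks chosen in all embryo reads, 30.3% of block windows stood between 20% and 70% in the adult and 2.99% below 20%. At least 1 window below 50% was seen in 3362 blocks (51.6%).

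Where the level of a whole block was lower in the adult, the lower windows usually made up most of it. Among 1659 blocks that were lower by 20 points or more and had at least 5 assessed windows, a median of 71.4% of the windows were themselves lower by 20 points or more. The same reads picked the blocks and placed their windows, so a high share was partly set by the choice. All windows were lower in 199 of these blocks (11.995%), and fewer than 50% of the windows in 180 (10.8%). An unbroken adult stretch below 50% reached 5 kb in 29 blocks, and the longest was 10500 bp. Conversely, 1062 of 2157 blocks that lay within 5 points of 72 hpf over their whole length (49.2%) held at least 1 window lower by 20 points. Each block offered several windows, and a window rests on fewer calls than its block. How many windows would be this low by the sampling of reads alone was not tested. The SD between windows of a block had a median of 20.6 points in the adult where the adult level was below 30%, and of 9.62 points where it was 80% or more. At 72 hpf the same blocks had 7.13 and 6.35 points, a spread that the choice of windows limits. Embryo reads, those at 72 hpf included, chose the windows and adult reads did not. The spreads in the adult and at 72 hpf are therefore not on equal terms.

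Neighbouring blocks had similar adult differences. Where a single window separated 2 blocks, which was the case for 474 of 4787 neighbouring pairs, their adult minus 72 hpf differences correlated at 0.667 (Spearman, over 473 pairs with calls in every library). The correlation was 0.656 at gaps of 1000 to 2000 bp, 0.601 at 2500 to 10000 bp, 0.343 at 10500 to 50000 bp and 0.0458 beyond. With replicate 1 of one block set against replicate 2 of the other, it was 0.653 in the closest pairs and 0.0485 in the farthest, so no library was shared between the 2 sides. For the change from 24 to 72 hpf, the correlation was 0.0514 in the closest pairs. Reads at 24 and 72 hpf took part in the choice of blocks, which limits how far this change can spread. Adult reads took no part in it. The correlations of the adult difference and of the change from 24 to 72 hpf are therefore not on equal terms. CpG density was also alike in neighbours, at 0.450 in the closest pairs and 0.173 in the farthest, and its part in the likeness of the adult difference was not tested. These correlations over pairs of blocks are descriptions and carry no p.

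The longest blocks stood close to the typical block in the adult. The longest, Scaffold1075_253501, spans positions 253501 to 294500 of Scaffold1075 in the build Spur3.1, which is 41000 bp with 741 CpG sites. Its level was 85.3% and 91.0% in the 24 hpf replicates, 85.6% and 86.8% in the 48 hpf pair and 84.6% and 85.9% in the 72 hpf pair. The adult replicates stood at 76.8% and 75.1%. Both adult libraries lay below every embryo library, by 9.25 points on average against 72 hpf, and 19 of 78 assessed adult windows were below 70%. The value of 91.0% in 24 hpf replicate 2 rests on 534 calls, against 8465 in replicate 1.

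Scaffold105_925501, at positions 925501 to 966000 of Scaffold105 with 765 CpG sites, stood at 86.9% ± 0.282 (SD, n = 2) at 72 hpf and 77.4% ± 0.838 in the adult. Scaffold994_128501, at positions 128501 to 164000 of Scaffold994 with 548 sites, stood at 89.9% ± 0.869 at 72 hpf and 79.2% ± 0.677 in the adult (SD, n = 2 each). In all 3 the adult libraries were lower without overlap, and 17 to 19 assessed windows of each block were below 70%.

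The largest fall was nearly complete and ran through the whole block. This block, Scaffold356_343001, spans positions 343001 to 350000 of Scaffold356 and holds 77 CpG sites. It stood at 92.0% and 94.4% in the 24 hpf replicates, 88.8% and 89.9% in the 48 hpf pair and 92.5% and 90.3% in the 72 hpf pair. The adult replicates stood at 2.18% and 2.76%, and every library had at least 825 calls. The adult level was 5% or less in 12 of its 14 windows and at most 32.5%. Of the 36 blocks on this scaffold, 22 were lower by 20 points or more in the adult, and 3 by 40 points or more, while the highest adult level there was 89.3%.

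Scaffold2268_50001, at positions 50001 to 57000 of Scaffold2268, is CpG-dense, with 300 sites or 42.9 per kb. It stood at 90.3% and 90.9% at 72 hpf and at 7.18% and 9.95% in the adult, with at least 1168 calls in each library. In 1 of its 14 windows the adult level was 50.2%, and 9 windows were at 5% or less. By its density it belongs to the richest quartile class, in which 246 of 1616 blocks (15.2%) were lower by 20 points or more. In the poorest class the share was 38.9%.

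The third fall, in Scaffold350_348001 at positions 348001 to 362500 of Scaffold350, was from 86.9% and 86.7% at 72 hpf to 7.26% and 9.79% in the adult. It describes only part of the block: 15 of its 29 windows had fewer than 10 adult calls, and 7 had 0. Of the other 14 windows, 10 stood at 5% or less and 4 at 50% or more. These 3 blocks were named because their falls were the largest, so the falls are descriptions without a test.

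**Figure D5:**
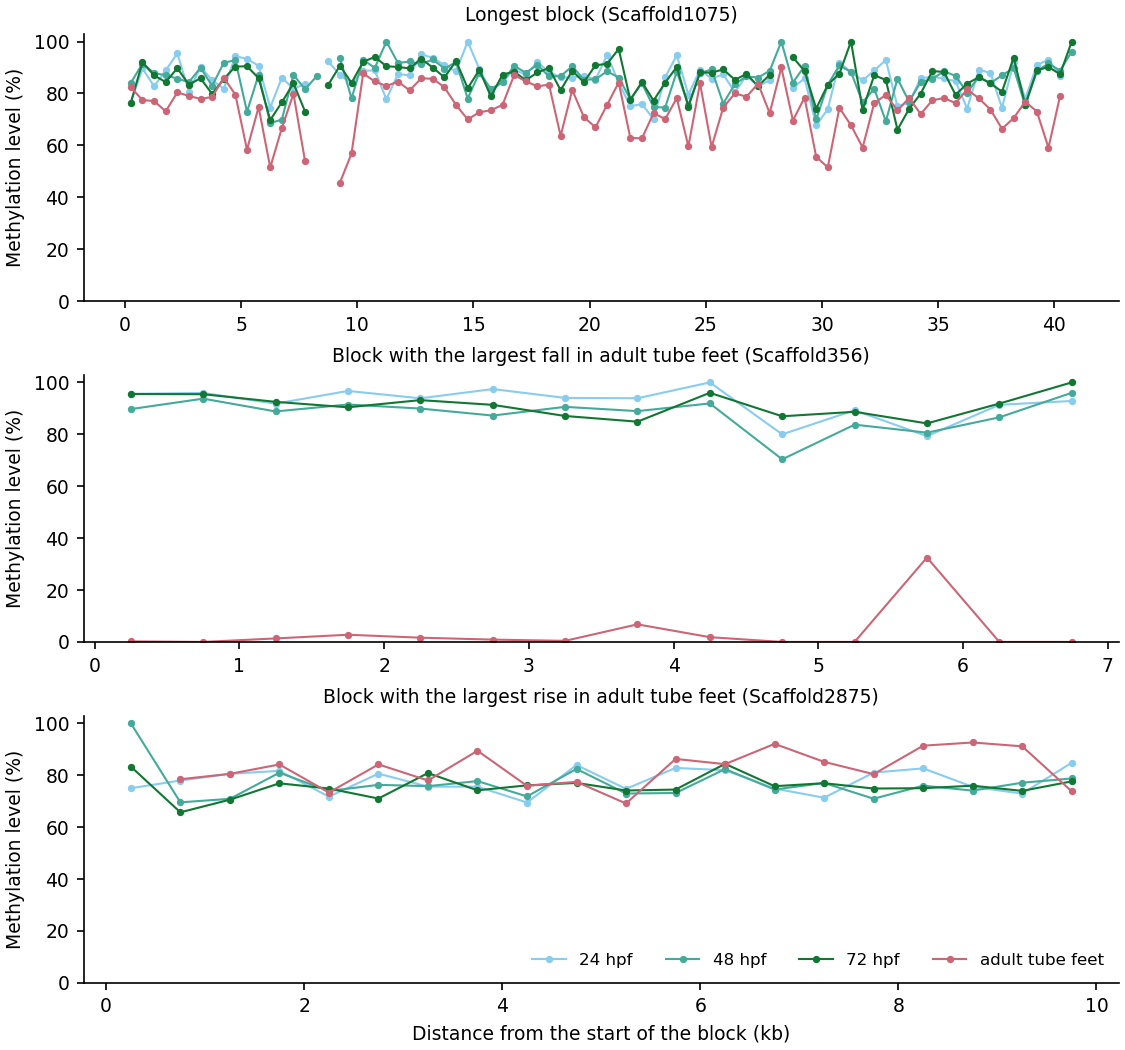
Methylation level (%) of 500 bp windows along the longest block, the block with the largest fall and the block with the largest rise in adult tube feet, against the distance in kb from the start of the block. Points are the 2 pooled libraries of a group with at least 10 calls. The adult level dips in single windows of the longest block, is at most 32.5% along the block of Scaffold356 and is above all 3 embryo groups in 10 of 19 windows of the block on Scaffold2875 and below all 3 in 2.

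Higher adult levels were few and the differences small. The high embryo level by which the blocks were chosen left little room for a rise. Of 5056 blocks with at least 200 calls in every library and no overlap between adult and 72 hpf libraries, 100 (1.98%) were higher in the adult, against 4.54% of all runs that met the same conditions. The largest was in Scaffold2875_35501, at positions 35501 to 45500 of Scaffold2875 with 233 CpG sites. It stood at 75.2% and 82.7% in the 24 hpf replicates, 72.9% and 78.8% in the 48 hpf pair and 74.9% in both 72 hpf replicates. The adult replicates stood at 84.8% and 85.1%. The next largest, Scaffold2875_46001, begins 1 window further along and stood at 76.0% and 76.9% at 72 hpf and at 85.7% and 85.2% in the adult. The blocks of Scaffold2875 had a median of 283 calls per CpG site over all libraries, against 72.8 over all blocks.

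Scaffold1927_21001, at positions 21001 to 26500 of Scaffold1927, stood at 77.4% and 82.4% at 72 hpf and at 87.4% and 87.9% in the adult. Its level of 90.8% in 24 hpf replicate 2 lay above the adult. All 3 blocks started below the median embryo level of the blocks.

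The extremes of CpG density were both 5 kb long. Scaffold519_34001, at positions 34001 to 39000 of Scaffold519, held 348 sites (69.6 per kb) and stood at 86.5% and 86.0% at 72 hpf and at 77.5% and 79.1% in the adult. Scaffold2186_27001, at positions 27001 to 32000 of Scaffold2186, held 28 sites (5.60 per kb) and stood at 85.8% and 83.4% at 72 hpf and at 68.1% and 70.3% in the adult. The level of the second in 24 hpf replicate 2 rests on 42 calls.

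At single sites, the share of intermediate levels was higher in the adult than in the embryos, whose reads chose the blocks. Of block sites with at least 10 reads in the 2 pooled libraries of a group, the share at 80% or more was 86.1%, 81.7% and 84.7% in 24, 48 and 72 hpf embryos. It was 62.1% in adult tube feet. The share between 20% and 80% was 14.2% at 72 hpf and 32.3% in the adult, and the share at 20% or less was 1.07% and 5.67%. In shorter runs the adult share at 80% or more was 54.4%, against 80.2% at 72 hpf. A few sites were read as unmethylated inside otherwise methylated blocks. Sites were not screened here for sequence variants, and their part in these low levels was not tested. Of 463587 block sites with at least 30 embryo and 10 adult reads, 3159 (0.681%) were at 20% or less in embryos, and 2279 blocks held such a site. Of these sites, 72.4% stayed at or under 20% in adult reads, against 4.86% of the remaining sites.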

How the data were processed

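Per the file headers, the authors deposited MethylDackel calls of merged, sorted and deduplicated reads on Spur3.1 linear scaffolds, with both strands of a CpG merged. The submitters' processing notes also name Trimmomatic and Picard; for the aligner and for versions nothing is given in the sources used here. The deposited counts of methylated and unmethylated reads were used. The deposited percent column, the same level cut to a whole number, was checked only. Lambda phage rows were left out. Coordinates are 1-based.

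Counts were summed in windows of 500 bp, and runs were built as described above. CpG sites are those listed in at least 1 library. A block's level needed 20 calls per library. A read covering several sites is counted at each, so calls are not independent.

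For tests, all runs chosen in the 48 hpf libraries with 20 or more calls in each of the 6 other libraries were fitted with a quasi-binomial model with 1 mean per group. The Pearson dispersion was moderated with limma 3.58.1 (R 4.3.3; squeezeVar, coverage trend, lower bound 1), followed by quasi-likelihood F tests and Benjamini-Hochberg adjustment over all 67263 runs. Runs with a mean level below 2.5% or above 97.5% were never called. The script was tested on simulated data. Replicates come from the titles, and p-values measure only the spread between these libraries. Arithmetic used numpy 2.4.6.

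Blocks named are the 3 longest, the 3 largest falls and the 3 largest rises in adult tube feet against 72 hpf without overlap and with 200 or more calls in every library, and the most and least CpG-dense. The members and lists were chosen with earlier results of these data known. Genes and sequences were not used here.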

Additional observations from a re-analysis of the deposited data

Results flagged for a closer look

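Library values were examined over the 6 embryo libraries for 6 related measures, and by chance a library stands out in about 5% of such groups. In 2 measures the gap between 24 hpf replicate 2 and the nearest other library was large relative to the whole range. The share of its calls that fell in blocks was 12.3%, against 7.80% to 9.24% in the other 5. Its calls per CpG site in blocks were 2.83 times those in unmethylated windows, against 1.29 to 1.67. From block to block, its calls ranged from 0.280 to 2.39 times the mean of the other embryo libraries (5th and 95th percentiles). For 24 hpf replicate 1, the same range against the 48 and 72 hpf libraries was 0.670 to 0.943. The part of this coverage in the levels of the blocks was not tested.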

How the results depend on the processing

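The number of blocks depended strongly on their definition, while the median adult level stayed between 75.8% and 84.5% in every definition tried. Each alternative is given with the values that moved beyond a tolerance. For the median adult level and the share below 70% this was the SD between the adult replicates. For counts it was 1.5 times. For the other values it was a confidence interval over blocks or windows, which are not replicates. The order is blocks, median length, share of covered windows and median CpG sites per kb. The median adult level, the share of blocks below 70% in the adult and the share with every adult window at 70% or more follow. At a window level of 60% there were 9511 blocks, and the last 5 were 11.7%, 15.7, 77.3%, 34.2% and 8.97%. At 80% they were 2386 blocks, 6000 bp, 2.55%, 17.5, 83.0%, 20.1% and 27.3%. With 60 reads per window they were 4021, 6000 bp, 5.42%, 17.2, 80.7%, 26.7% and 16.5%. With 10 reads there were 7493 blocks, the share of windows was 8.26%, the density 15.8 and the share below 70% was 30.9%. Windows of 250 bp gave 568 blocks, 6000 bp, 0.723%, 20.9, 84.5%, 12.9% and 15.3%. Windows of 1000 bp gave 16328, 7000 bp, 20.6%, 14 sites, 75.8%, 36.9% and 15.8%. With 1 window of too few reads allowed there were 10584 blocks, 13.1%, 15 sites, 77.4%, 34.0% and 11.7%. With 20 windows or more there were 934 blocks, 12000 bp, 1.99%, 17 sites, 81.5%, 22.6% and 7.53%. A grid shifted by 250 bp gave 28.8% below 70%, and equal weight of libraries 7.49% of windows.

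Without each embryo library in turn, the values ranged from 6005 to 6248 blocks, 7.14% to 7.39% of windows, 16.1 to 16.4 sites per kb, 79.4% to 79.5% in the adult, 28.98% to 29.5% below 70% and 13.8% to 14.3% with every window. The median length stayed at 6500 bp.

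The 970 blocks called lower in the adult became 1713 of 6488 (26.4%, against 31.9% of runs) with blocks chosen in all 6 embryo libraries. In that setting 72 hpf reads took part in the choice, so its count is a description and cannot serve as a test. They became 245 of 1346 (18.2%, against 30.8%) with windows at 80% or more. In both settings the number of blocks differs from that of the main test. They became 1723 (42.3%, against 45.6%) with a minimum of 10 points and 2725 (66.9%, against 51.0%) with none, where 5 blocks were higher. Without each replicate of the 24 hpf, 72 hpf and adult groups in turn, 956 to 1000 were called lower, and 0 higher or between 72 and 24 hpf. The replicate block gave 970 lower and 0 in the 3 other counts. Replicate differences of the groups correlated at 0.00847 to 0.0147 across blocks. This cannot tell whether libraries of the same number share parents or handling, which the labels do not give. All 44 leave-outs of the 11 named blocks, chosen after seeing the data, kept their direction; Scaffold1927_21001 differed by 5.29 points without 72 hpf replicate 1.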

Other observations

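Some block windows that were well covered in embryos had no adult call. Of 80362 block windows with at least 100 embryo calls, 1347 (1.68%) had 0 calls in both adult libraries together, and they lay in 742 blocks. In 42 blocks there were 5 or more such windows, and in one there were 17. Of 79910 block windows with at least 100 calls outside the 72 hpf libraries, 13 had 0 calls at 72 hpf. Because embryo reads chose the windows, the 2 counts are not on equal terms. The windows with 0 calls numbered 6 to 42 in each embryo library other than 24 hpf replicate 2, which had 1756, and 1842 and 2008 in the adult libraries. Whether the embryos and the adults came from the same animals is not given in the sources used here.

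The adult replicates differed by more than 20 points in 9 blocks, by up to 88 points. The less covered adult library had at most 86 calls in each of these blocks, and replicate 2 was the higher one in 2 of them.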
